A study of Homo sapiens with 12 samples.

Results

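TXNIP and the related alpha-arrestins ARRDC1, ARRDC2, ARRDC3 and ARRDC4 were examined together with MLXIP and MLXIPL, the glucose-sensing transcription factors that act on this family, in prostate cancer cells with and without silencing of MUC1. The 7 genes were taken by symbol from the 58037 gene identifiers with deposited counts, and all 7 were present once and passed the filter on low counts in every comparison. They had been chosen with the differences between DOX and vehicle samples in both cell lines already known, so those differences are described here without a test.

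RNA-seq had been performed on LNCaP-AI cells, an androgen-independent line selected from C4-2B, a derivative of the LNCaP prostate cancer line, and on DU-145 cells, an androgen-independent prostate cancer line that lacks the androgen receptor. Both lines stably carried a tetracycline-inducible MUC1 shRNA (tet-MUC1shRNA) and were selected in puromycin. GEO's labels give phenol red-free medium with charcoal-stripped serum for both lines, whereas the study's methods give it for LNCaP-AI cells and medium with ordinary heat-inactivated serum for DU-145 cells, so a difference in medium cannot be told apart from one between the lines. Each line had 3 samples treated with vehicle (0.1% DMSO) and 3 treated with 500 ng/ml doxycycline (DOX) for 7 days, 12 samples in all. GEO's labels call the groups shCTL and shMUC1, while the study describes the same cells given vehicle or DOX. No control-shRNA samples with DOX were analysed here, so effects of the drug and of the shRNA cannot be told apart. The sources describe cells cultured in triplicate without saying whether the cultures were set up separately, so errors and p-values measure the spread between these samples, which may be technical.

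Alpha-arrestins are adaptor proteins that carry PPxY motifs, recruit ubiquitin ligases of the NEDD4 family and direct membrane proteins to endocytosis. TXNIP, the best known of them, also binds thioredoxin and lowers glucose uptake by removing glucose transporters from the cell surface. MLXIP (MondoA) and MLXIPL (ChREBP) pair with MLX, enter the nucleus when glucose phosphates accumulate and activate TXNIP and ARRDC4 through carbohydrate response elements, so that these transcripts serve as a readout of glucose sensing.

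The promoters of TXNIP and ARRDC4 are shown because these textbook targets of MLXIP and MLXIPL differed in opposite directions between DOX and vehicle samples. Each sequence is the 250 bases before the RefSeq start site (GRCh38.p14), read 5′ to 3′ on the strand of the gene, with the matches to E-box-like motifs in capitals. TXNIP lies on the minus strand and its window is chr1:145996580-145996829, and ARRDC4 lies on the plus strand with the window chr15:97960453-97960702.
TXNIP: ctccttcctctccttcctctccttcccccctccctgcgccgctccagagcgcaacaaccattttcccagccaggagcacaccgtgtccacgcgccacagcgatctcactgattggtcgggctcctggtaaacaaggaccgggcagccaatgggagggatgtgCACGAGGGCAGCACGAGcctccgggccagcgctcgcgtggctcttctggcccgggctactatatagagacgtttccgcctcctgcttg
ARRDC4: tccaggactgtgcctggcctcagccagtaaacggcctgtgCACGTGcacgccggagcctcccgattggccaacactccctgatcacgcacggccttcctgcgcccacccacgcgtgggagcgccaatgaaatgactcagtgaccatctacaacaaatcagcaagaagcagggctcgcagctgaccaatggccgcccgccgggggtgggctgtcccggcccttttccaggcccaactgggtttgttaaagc
The capitals in TXNIP mark the tandem motif, 2 copies of CACGNG separated by 5 bases, which begins at position -88 from the start site and which was chosen for the search after the sequence had been read. It was found in 0.0456% of 35116 promoter windows of this length, on either strand. The capitals in ARRDC4 mark the E-box CACGTG at -210, a motif in 6.34% of windows, which overlaps no tandem match. No other of the 10 promoter windows of the 7 genes held either motif, and none matched the published carbohydrate response element consensus, a pattern that partly overlaps the E-box and the tandem motif and was in 0.0797% of windows. CCAAT, in 32% of windows, was present at -140 and -105 in TXNIP and at -187, -128 and -67 in ARRDC4, and TATAAA, in 10.7% of windows, was present in neither. These matches describe the letters in the windows and do not show binding.

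Total counts ranged from 10423437 to 13544153 per sample in DU-145 cells and from 16569613 to 26961777 in LNCaP-AI cells. MUC1 had 74, 60 and 59 counts in the DU-145 vehicle samples and 3 in each DOX sample, and 36, 25 and 52 counts in the LNCaP-AI vehicle samples and 8, 6 and 3 in the DOX samples. The LNCaP-AI samples did not separate by treatment on their first principal component (82.5% of the variance): vehicle 2, vehicle 3 and DOX 1 lay apart from vehicle 1, DOX 2 and DOX 3. In those 3 samples the summed level of 8 genes listed as markers of DU-145-type cells was 1306 to 1356 CPM (counts relative to library size, TMM-normalized), against 203 to 403 CPM in the other LNCaP-AI samples and 2822 to 4088 CPM in DU-145 samples. All 8 LNCaP-type markers were detected in every LNCaP-AI sample, with a summed level of 2437 to 5316 CPM, and 5 or 6 of the 8, the androgen receptor and KLK3 among them, were at 0 counts in each DU-145 sample. Values of the 7 genes and of the list genes called in LNCaP-AI cells are therefore also given within each side, first the side of vehicle 1, DOX 2 and DOX 3 and second that of vehicle 2, vehicle 3 and DOX 1. Each side has a treatment arm of 1 sample, so a fit within a side takes its spread from the other samples and assumes that the lone sample varies like them. In bulk RNA, fewer cells of a type and less RNA per cell cannot be told apart.

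TXNIP (ENSG00000265972, chromosome 1 from 145992435 to 145996579 of GRCh38, minus strand) was more abundant with DOX in each of the lines. LNCaP-AI samples held 1721, 1621 and 2295 counts in vehicle samples 1, 2 and 3, and 4156, 3163 and 3304 counts in DOX samples 1, 2 and 3. The normalized level was 86.6 ± 4.70 CPM with vehicle and 187 ± 8.97 CPM with DOX (SD, n = 3 each). No DOX sample was as low as any vehicle sample, and the log2 fold change was 1.11 (standard error, SE, 0.0793). Within the sides of the LNCaP-AI division the log2 fold changes were 1.26 and 1.02. In DU-145 cells TXNIP had few counts, with 25, 18 and 34 counts with vehicle and 45, 57 and 40 with DOX. The levels were 2.11 ± 0.525 and 3.87 ± 0.441 CPM (SD, n = 3 each), with a difference of 0.86 on the log2 scale (SE 0.228), and here too the groups did not overlap.

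ARRDC4 (chromosome 15, 97960703 to 97973833), which shares with TXNIP its control by MLXIP and MLXIPL and its action on glucose transporters, was lower with DOX in both lines. In LNCaP-AI cells the counts were 455, 418 and 578 with vehicle and 443, 325 and 330 with DOX, or 22.3 ± 1.26 and 19.3 ± 0.321 CPM (SD, n = 3 each). The groups did not overlap after normalization, although the difference was small, with a log2 fold change of -0.21 (SE 0.0964) and of -0.13 and -0.23 within the sides. In DU-145 cells the counts were 49, 45 and 52 with vehicle and 21, 41 and 36 with DOX, or 4.06 ± 0.278 and 2.65 ± 0.668 CPM (SD, n = 3 each). The log2 fold change was -0.60 (SE 0.217), again without overlap, and DOX 1 was the lowest sample. TXNIP and ARRDC4 thus differed from vehicle in opposite directions in each line.

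**Figure D1:**
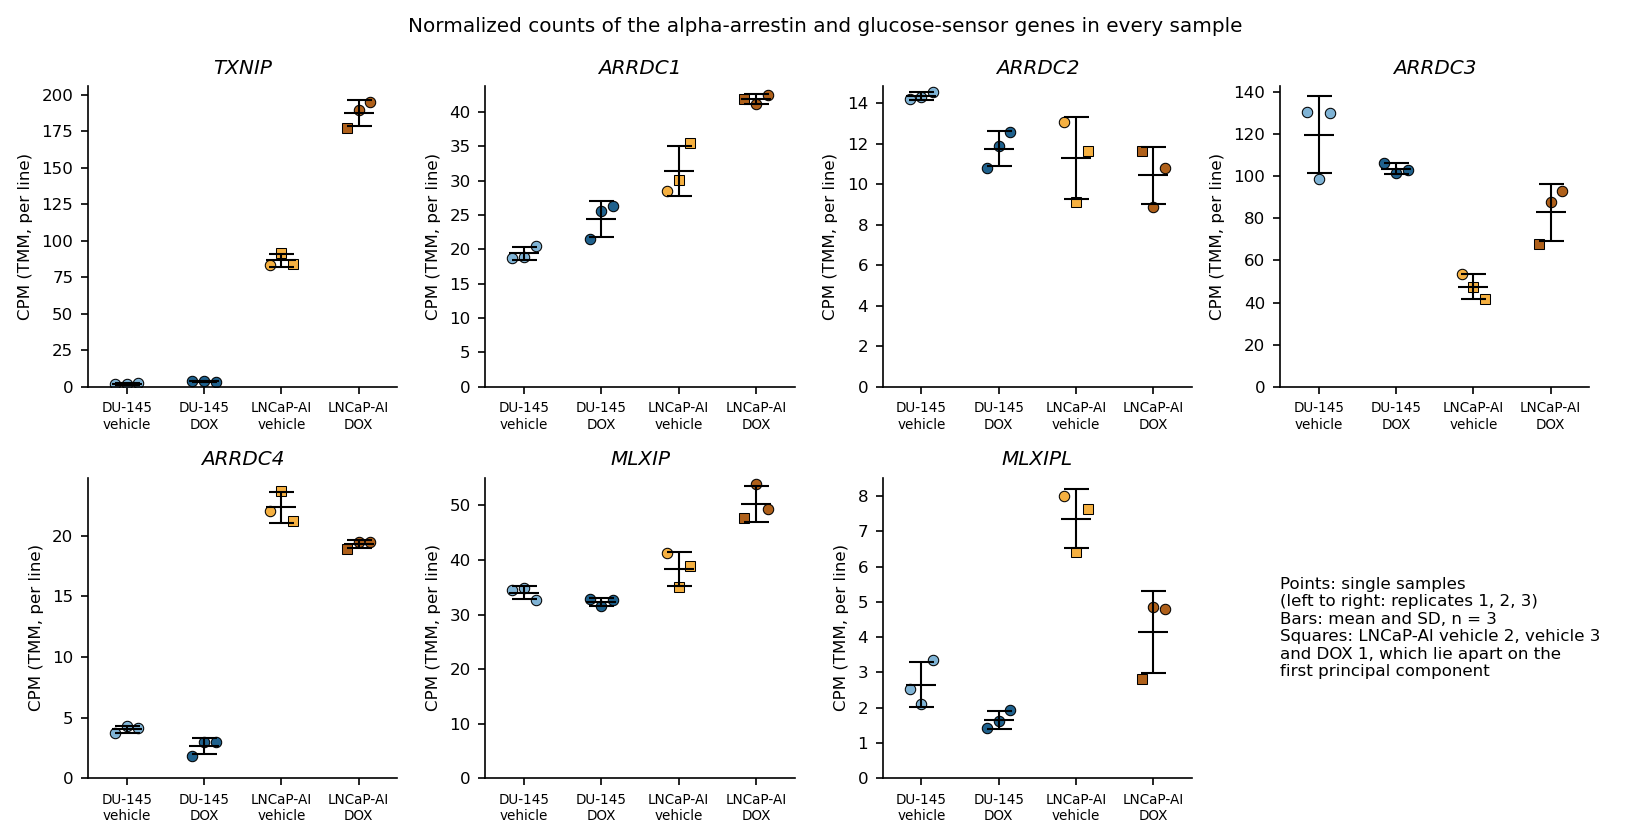
Normalized counts (CPM, y axis) of the 7 genes in every sample, with vehicle and DOX groups of both lines on the x axis; points are samples, bars the mean and SD (n = 3), and squares LNCaP-AI vehicle 2, vehicle 3 and DOX 1. TXNIP and ARRDC1 lie higher with DOX in both lines and ARRDC4 and MLXIPL lower, without overlap of the groups.

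ARRDC3 (chromosome 5, 91368631 to 91383317, minus strand), an adaptor for integrin beta4, was higher with DOX in LNCaP-AI cells and overlapped between the groups in DU-145 cells. LNCaP-AI counts were 1104, 836 and 1131 with vehicle and 1582, 1467 and 1578 with DOX, or 47.5 ± 5.98 and 82.9 ± 13.5 CPM (SD, n = 3 each). All DOX samples were above all vehicle samples, DOX 1 was the lowest of them, and the log2 fold change was 0.80 (SE 0.158), with 0.81 and 0.62 within the sides. In DU-145 cells the counts were 1709, 1035 and 1631 with vehicle and 1191, 1370 and 1222 with DOX, or 119.7 ± 18.3 and 103 ± 2.61 CPM (SD, n = 3 each). Vehicle 2 was below all DOX samples while the other vehicle samples were above them, so the groups overlapped, and the log2 fold change was -0.21 (SE 0.0884). The difference between the log2 fold changes of the lines, LNCaP-AI minus DU-145, was 1.05 (SE 0.200).

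ARRDC1 (chromosome 9, 137605685 to 137615360), which recruits TSG101 to the plasma membrane and drives budding of small vesicles, was higher with DOX by similar amounts in both lines. Its counts were 588, 531 and 967 with vehicle and 981, 686 and 720 with DOX in LNCaP-AI cells, or 31.4 ± 3.68 and 41.9 ± 0.705 CPM (SD, n = 3 each). In DU-145 cells they were 246, 198 and 258 with vehicle and 240, 346 and 312 with DOX, or 19.4 ± 0.982 and 24.4 ± 2.62 CPM (SD, n = 3 each). The groups did not overlap in either line, and the log2 fold changes were 0.41 (SE 0.105) in LNCaP-AI cells, with 0.61 and 0.36 within the sides, and 0.33 (SE 0.1) in DU-145 cells.
ARRDC2 (chromosome 19, 18001132 to 18014102), a less studied member of the family, had 14.4 ± 0.182 CPM with vehicle and 11.8 ± 0.883 CPM with DOX in DU-145 cells (SD, n = 3 each). From counts of 186, 150 and 183 with vehicle and 121, 161 and 149 with DOX, all DOX samples were below all vehicle samples after normalization, with a log2 fold change of -0.29 (SE 0.112). In LNCaP-AI cells, with 270, 161 and 317 counts with vehicle and 272, 148 and 183 with DOX, the groups overlapped and the log2 fold change was -0.11 (SE 0.188). It had opposite signs within the sides, at -0.36 and 0.16, so no direction is given for ARRDC2 in this line.

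In LNCaP-AI cells the 2 glucose-sensing factors differed from vehicle in opposite directions. MLXIP (chromosome 12, 122078756 to 122147344), the member of the pair found in most tissues, had 851, 617 and 1058 counts with vehicle and 1116, 901 and 835 with DOX in LNCaP-AI cells, or 38.4 ± 3.15 and 50.3 ± 3.28 CPM (SD, n = 3 each). DOX samples were above vehicle samples without overlap, with a log2 fold change of 0.39 (SE 0.0972) and of 0.38 and 0.38 within the sides. In DU-145 cells MLXIP had 451, 366 and 410 counts with vehicle and 368, 426 and 388 with DOX, or 34.0 ± 1.19 and 32.4 ± 0.754 CPM (SD, n = 3 each), and the groups overlapped (log2 fold change -0.07, SE 0.0797). The log2 fold change of MLXIP differed by 0.50 between the lines (SE 0.110, LNCaP-AI minus DU-145).
MLXIPL (chromosome 7, 73593194 to 73624543, minus strand), best known in liver and fat, was lower with DOX in both lines. LNCaP-AI samples had 165, 113 and 208 counts with vehicle and 66, 81 and 81 with DOX, or 7.35 ± 0.832 and 4.15 ± 1.15 CPM (SD, n = 3 each). In DU-145 cells it had 33, 22 and 42 counts with vehicle and 16, 22 and 23 with DOX, or 2.65 ± 0.634 and 1.67 ± 0.257 CPM (SD, n = 3 each). The groups did not overlap in either line, and the log2 fold changes were -0.83 (SE 0.253) and -0.68 (SE 0.265). In LNCaP-AI cells DOX 1 was the lowest sample, and the sides gave log2 fold changes of -0.68 and -1.32.

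Across both lines, the sign of the DOX difference was thus shared for TXNIP and ARRDC1, which were higher, and for ARRDC4 and MLXIPL, which were lower. For the remaining members the difference between the log2 fold changes of the lines was 0.28 for TXNIP (SE 0.198), 0.11 for ARRDC1 (SE 0.151), 0.21 for ARRDC2 (SE 0.205), 0.43 for ARRDC4 (SE 0.224) and -0.12 for MLXIPL (SE 0.362). At an adjusted p under 0.05 from edgeR's quasi-likelihood test, 5 of the 7 genes passed in DU-145 cells, where 51.5% of all 13644 genes tested passed, and 2 of the 7 in LNCaP-AI cells, where 12.7% of 16030 genes passed. Groups did not overlap for 5 of the 7 in DU-145 cells (57.4% of all genes) and for 6 of the 7 in LNCaP-AI cells (37.4% of all genes). The adjusted p passed for 2 higher and 3 lower members in DU-145 cells (26.3% and 25.3% of all genes) and for 2 higher and 0 lower in LNCaP-AI cells (7.22% and 5.52%). Overlap was absent for 2 higher and 3 lower members in DU-145 cells (29.6% and 27.7% of all genes) and 4 higher and 2 lower in LNCaP-AI cells (19.8% and 17.6%). For the difference between the lines 2 of the 7 passed, both positive, where 9.18% of 16800 genes passed, 5.43% positive and 3.76% negative. As these contrasts were known when the genes were chosen, nothing is read from these counts.

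**Figure D2:**
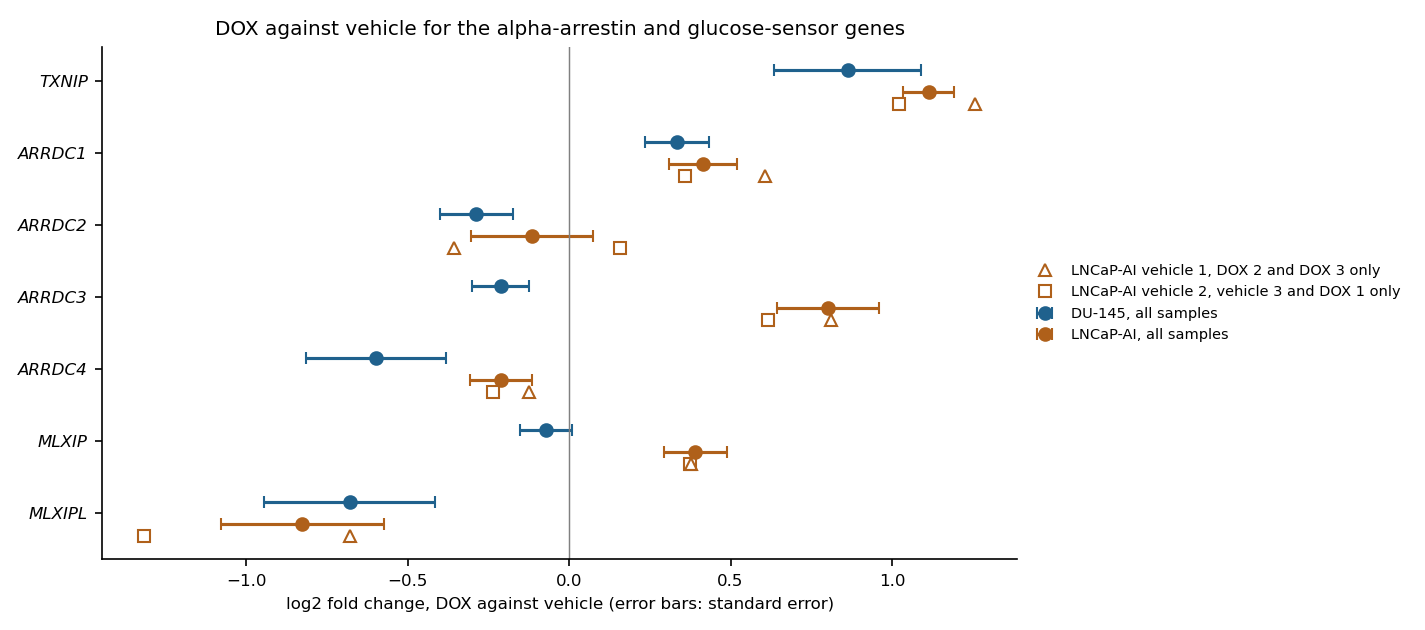
Log2 fold changes of DOX against vehicle (x axis, error bars: SE) for the 7 genes in DU-145 and LNCaP-AI cells, with open symbols for the values within each side of the LNCaP-AI division. TXNIP lies at 0.86 in DU-145 and 1.11 in LNCaP-AI cells, ARRDC3 at -0.21 and 0.80, and the open symbols fall on both sides of 0 only for ARRDC2.

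The vehicle samples were compared to ask how the untreated lines differ in this family, a contrast that the choice of genes did not use. TXNIP was the most divergent of the 7, 34.9-fold higher in LNCaP-AI than in DU-145 cells (log2 fold change 5.13, SE 0.177, adjusted p = 3.06e-06 in edgeR's quasi-likelihood test over 15628 genes). ARRDC4 was 4.72-fold higher in LNCaP-AI cells (log2 fold change 2.24, SE 0.141, adjusted p = 2.05e-05 by edgeR), and MLXIPL 2.37-fold higher (SE of the log2 fold change 0.227, adjusted p = 0.00227 by edgeR). ARRDC3 was 2.94-fold lower in LNCaP-AI than in DU-145 cells (log2 fold change -1.56, SE 0.145, adjusted p = 9.58e-05 in the edgeR test). For these 4 genes the samples of the lines did not overlap, and the call held in every alternative run, with MLXIPL at the largest adjusted p (0.0139 by edgeR). One of these used vehicle 1 alone for LNCaP-AI cells, where the spread comes from the DU-145 samples only.
Smaller differences were measured for ARRDC1, higher in LNCaP-AI cells (log2 fold change 0.48, SE 0.126, adjusted p = 0.0128 by edgeR), and ARRDC2, lower (log2 fold change -0.57, SE 0.162, adjusted p = 0.0172 by edgeR). ARRDC1 no longer passed without DU-145 vehicle 1 (adjusted p = 0.0716 by edgeR) or vehicle 2 (adjusted p = 0.064 by edgeR). The ARRDC2 call held in 11 of 15 alternative runs. Those that lost it included the edgeR runs without LNCaP-AI vehicle 2 (adjusted p = 0.0592) or vehicle 3 (adjusted p = 0.0587). With vehicle 1 as the only LNCaP-AI sample the log2 fold change of ARRDC2 was -0.28. MLXIP did not pass (log2 fold change -0.05, SE 0.0988, adjusted p = 0.701 by edgeR). In all, 6 of the 7 genes passed in this comparison, 4 higher and 2 lower, and 65.1% of all genes did, 35% higher and 30.2% lower. Of the 7 genes 4 higher and 2 lower had no overlap between the lines, as did 73.2% of all genes, 38.4% higher and 34.8% lower.

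Levels were compared between genes as CPM per kilobase of annotated exon, a scale that assumes that all annotated exons of a gene are used. In LNCaP-AI vehicle samples TXNIP was the most abundant, at 24.0 ± 1.31 CPM per kilobase (SD, n = 3), followed by ARRDC3 (9.53 ± 1.2), ARRDC1 (8.28 ± 0.972), ARRDC4 (5.50 ± 0.311), MLXIP (2.77 ± 0.227), ARRDC2 (2.44 ± 0.431) and MLXIPL (1.53 ± 0.173). Neighbours in this order were apart in all samples except ARRDC3 and ARRDC1, and MLXIP and ARRDC2. With DOX the order in LNCaP-AI cells was the same, TXNIP reached 52.0 ± 2.49 CPM per kilobase (SD, n = 3), and no neighbours overlapped.
In DU-145 vehicle samples ARRDC3 was the most abundant, at 24.0 ± 3.67 CPM per kilobase (SD, n = 3), followed by ARRDC1 (5.12 ± 0.259), ARRDC2 (3.10 ± 0.0393), MLXIP (2.45 ± 0.0858), ARRDC4 (0.999 ± 0.0684), TXNIP (0.586 ± 0.146) and MLXIPL (0.551 ± 0.132), and only the last pair overlapped. With DOX, TXNIP (1.07 ± 0.122 CPM per kilobase) stood above ARRDC4 (0.652 ± 0.164), the reverse of their order with vehicle, and ARRDC2 (2.54 ± 0.190) overlapped MLXIP (2.33 ± 0.0543).

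**Figure D3:**
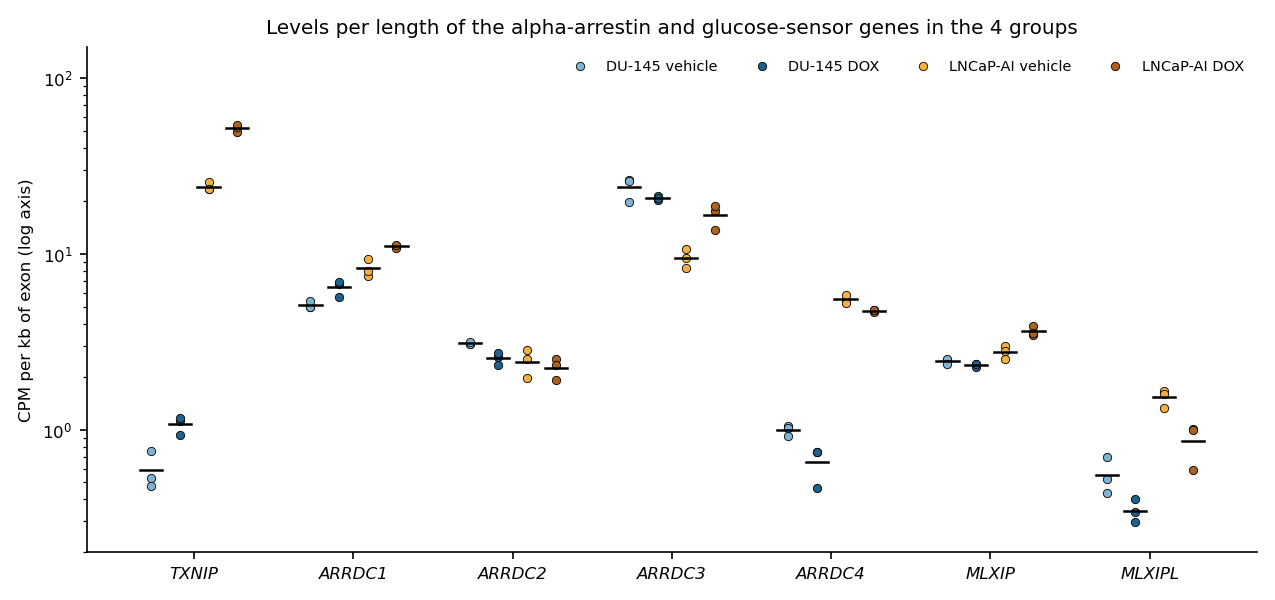
Levels per length (CPM per kilobase of exon, log axis) of the 7 genes in the 4 groups; points are samples and bars the mean (n = 3). TXNIP spans from 0.586 in DU-145 vehicle to 52.0 in LNCaP-AI DOX samples, while ARRDC2 and MLXIP stay between about 2 and 4 in all groups.

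On this scale the alpha-arrestin transcripts were made up differently in the lines. TXNIP held 48.3% ± 1.84 of the summed level of the 5 alpha-arrestins in LNCaP-AI vehicle samples and 60.0% ± 0.712 in DOX samples (SD, n = 3 each), and ARRDC4 held 11% ± 0.407 and 5.49% ± 0.245. ARRDC3 held 19.1% ± 2.30 and 19.1% ± 2.07, a like share although its level was higher. In DU-145 cells ARRDC3 held 70.8% ± 3.12 with vehicle and 66.0% ± 2.63 with DOX, and TXNIP 1.72% ± 0.303 and 3.41% ± 0.426 (SD, n = 3 each). The summed level of the family was 49.8 ± 0.977 CPM per kilobase with vehicle and 86.7 ± 5.15 with DOX in LNCaP-AI cells, and 33.8 ± 3.87 and 31.5 ± 0.542 in DU-145 cells (SD, n = 3 each). The sum was therefore higher with DOX in LNCaP-AI samples and overlapped between the groups in DU-145 samples. Not every member followed the sum in LNCaP-AI cells. TXNIP went from 24.0 to 52.0 CPM per kilobase, ARRDC3 from 9.53 to 16.6 and ARRDC1 from 8.28 to 11. ARRDC4 went from 5.50 to 4.75, and ARRDC2 overlapped between the groups.

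The genes around the family were taken as 9 lists, with 98 genes, of which 77 were tested in DU-145 and 82 in LNCaP-AI cells. The lists were chosen with earlier results of these data known. Their p-values are therefore a description, and nothing is read from their shares. With DOX, 28 rose and 18 fell in DU-145 cells, or 59.7% of those tested beside 51.5% of all genes. In LNCaP-AI cells 7 rose and 3 fell, or 12.2% beside 12.7% of all genes. The LNCaP-AI count was 0 without DOX 2 or without DOX 3, 3 without vehicle 2, 4 without vehicle 3, 17 without DOX 1, 42 with vehicle 1, DOX 2 and DOX 3 only, and 20 by DESeq2, so the number of calls in this line depends on single samples. The DU-145 count was 26 when all 12 samples were fitted together. The counts of each list below stand beside 26.3% of all genes higher and 25.3% lower in DU-145 cells. In LNCaP-AI cells these shares were 7.22% and 5.52%. None of the LNCaP-AI calls named below held without DOX 2 or without DOX 3. With single samples left out, their largest edgeR adjusted p ranged from 0.0883 for NEDD4L to 0.181 for ELOVL6.

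The thioredoxin system, which includes the thioredoxin that TXNIP binds, had 12 genes tested in each line. Thioredoxin itself (TXN), outside the naming rule, did not pass in either line. Its log2 fold change was -0.15 in DU-145 and 0.04 in LNCaP-AI cells (edgeR adjusted p = 0.228 and 0.914). In LNCaP-AI cells 4 rose and none fell, or 33.3% beside 12.7% of all genes, and 8 did not pass. The median log2 fold change was 0.375, against -0.05 over all genes. PRDX1, a peroxiredoxin that removes hydrogen peroxide, rose by 0.66 on the log2 scale (SE 0.0861, adjusted p = 0.0138 in edgeR's quasi-likelihood test), with 0.61 and 0.75 within the sides. TXNRD1, which regenerates thioredoxin, rose by 0.60 (SE 0.107, adjusted p = 0.0235 by edgeR), with 0.60 and 0.53 within the sides. In DU-145 cells 3 of the 12 rose and 1 fell, or 33.3% beside 51.5% of all genes, with a median of 0.04 against 0.00 over all genes. Mitochondrial TXN2 rose by 0.60 and PRDX5 by 0.38 (adjusted p = 2.18e-06 and 0.000116 by edgeR), whereas TXNRD1 fell by 0.31 (adjusted p = 0.00384 by edgeR).
Glucose transporters and hexokinases, the proteins that set the supply of glucose phosphates, had 8 genes tested in DU-145 cells, of which 3 rose and 2 fell (median log2 fold change -0.05). SLC2A1, the main transporter that TXNIP and ARRDC4 act on, rose by 0.46 and HK2 by 0.26, while HKDC1 fell by 2.38 and SLC2A10 by 1.78 (edgeR adjusted p from 6.27e-08 to 0.00865). In LNCaP-AI cells 1 of 13 passed (median 0.06), SLC2A12, which rose by 1.09 (SE 0.188, adjusted p = 0.0213 by edgeR), with 1.10 and 0.85 within the sides. SLC2A1 had a log2 fold change of -0.06 there with all samples (adjusted p = 0.903 by edgeR) and of 0.37 and 0.14 within the sides, the first with a single vehicle sample, so no direction is given for it in this line.
Of the MLX and MAX network, 4 rose and 1 fell among 9 tested in DU-145 cells (median 0.05). MXD1, a repressor that opposes MYC at MAX sites, rose by 1.63 and MYC by 0.59, and MXD3 fell by 0.84 (edgeR adjusted p from 6.46e-11 to 0.000939). In LNCaP-AI cells only MXD3 passed among the 9 (median -0.06), and it fell by 1.02 (SE 0.166, adjusted p = 0.019 by edgeR), with -0.98 and -1.20 within the sides. Of the carbohydrate response genes, other reported targets of MLXIP and MLXIPL and mostly enzymes of lipid synthesis, 2 rose and 4 fell among 11 tested in DU-145 cells (median -0.09). ACACA rose by 0.22 and ACLY by 0.18, and SCD fell by 0.38 and KLF10 by 0.32 (edgeR adjusted p from 0.000231 to 0.0456). The call held in only 6 of 13 alternative runs for ACACA and 4 of 13 for ACLY, against 13 of 13 for SCD and 12 of 13 for KLF10. In LNCaP-AI cells 1 of 13 passed (median -0.09), the fatty acid elongase ELOVL6, which fell by 0.45 (SE 0.101, adjusted p = 0.0408 by edgeR). Within the sides ELOVL6 had -0.53 and -0.35, and it did not pass on the second (adjusted p = 0.0989 by edgeR).

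The NEDD4-family ligases, which alpha-arrestins recruit through their PPxY motifs, included NEDD4L, which rose in both lines. Its log2 fold change was 1.25 in DU-145 cells (SE 0.0672, adjusted p = 2.84e-11 by edgeR) and 0.61 in LNCaP-AI cells (SE 0.0763, adjusted p = 0.0129 by edgeR), with 0.63 and 0.58 within the sides. In DU-145 cells 4 of the 9 ligases rose and none fell, or 44.4% beside 51.5% of all genes (median 0.15). HECW1 was among those that rose, with 0.91 (adjusted p = 1e-06 by edgeR). In LNCaP-AI cells 1 of 7 rose and 1 fell (median -0.05), and the latter was NEDD4, by 0.49 (SE 0.109, adjusted p = 0.0398 by edgeR). Within the sides NEDD4 had -0.39 and -0.40, and it did not pass on the second (adjusted p = 0.0835 by edgeR). Of the AMPK subunits, whose kinase phosphorylates TXNIP and promotes its turnover, 4 of 6 rose and 1 fell in DU-145 cells (median 0.29), with PRKAB1 at 0.57, PRKAB2 at 0.47 and the catalytic PRKAA1 at -0.27 (edgeR adjusted p from 3.14e-05 to 0.00319). In LNCaP-AI cells PRKAG1 passed among 6 (median 0.13), and it rose by 0.41 (SE 0.0890, adjusted p = 0.0363 by edgeR), with 0.39 and 0.41 within the sides. With single samples left out, the edgeR adjusted p of PRKAG1 reached 0.167.
ESCRT genes of vesicle budding, which act with ARRDC1, had 4 that rose and 4 that fell among 11 in DU-145 cells (median 0.08), and none of 11 passed in LNCaP-AI cells (median -0.05). VPS37B rose by 1.03 and VPS37A by 0.39, while MVB12B fell by 1.07 and VPS37C by 0.31 (edgeR adjusted p from 7.87e-09 to 0.00956). All 6 listed cargo receptors and transporters passed in DU-145 cells, 3 in each direction (median -0.07), where 51.5% of all genes passed. The iron transporter SLC11A2 rose by 0.45, while the thrombin receptor F2R fell by 1.33 and the insulin receptor INSR by 0.47 (edgeR adjusted p from 2.15e-08 to 0.000248). None of the 6 passed in LNCaP-AI cells (median -0.17). Among 5 tested genes with an arrestin fold outside the group of 7, VPS26C rose by 0.45 and ARRB1 and VPS26B fell by 0.71 and 0.19 in DU-145 cells (edgeR adjusted p from 6.72e-05 to 0.0416), and none passed in LNCaP-AI cells. The DU-145 call of VPS26B held in only 5 of 13 alternative runs, and those of VPS26C and ARRB1 in 13 of 13. ARRDC5, the remaining alpha-arrestin, had between 0 and 2 counts per sample and was not tested.

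**Figure D4:**
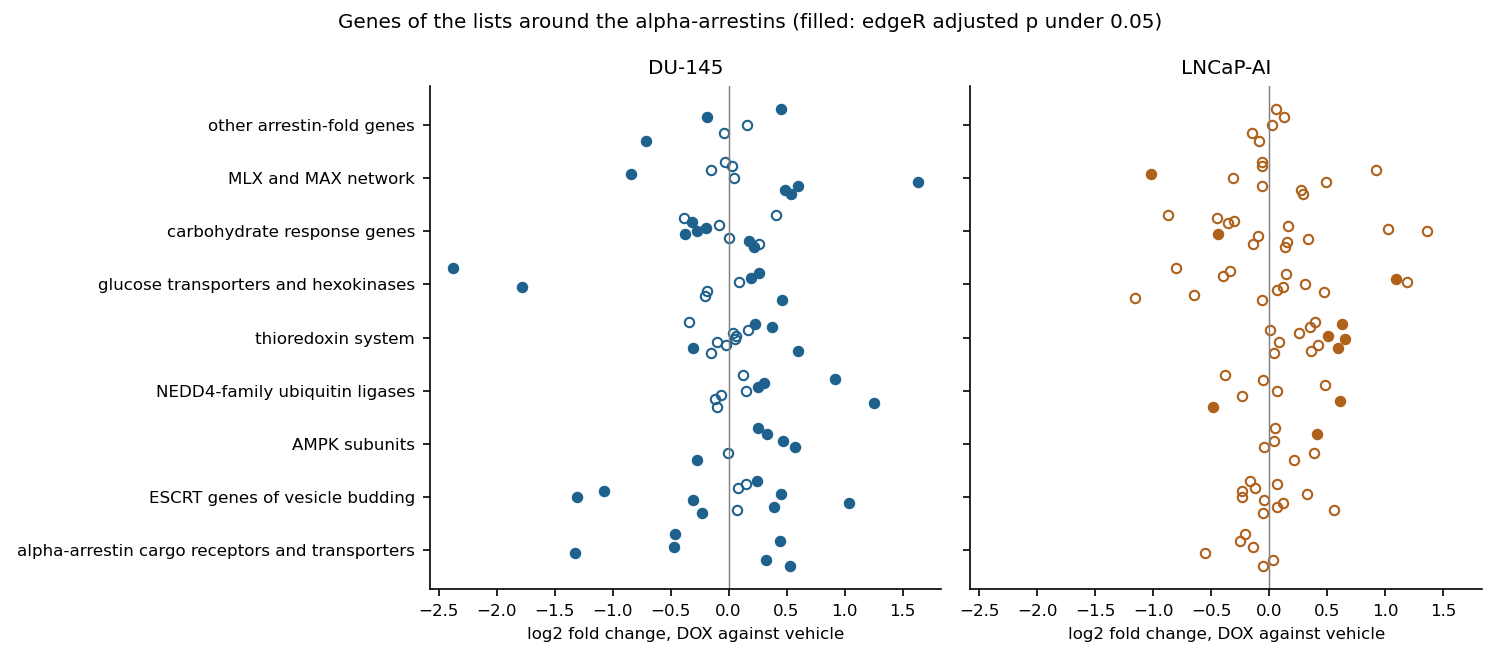
Log2 fold changes of DOX against vehicle (x axis) for the tested genes of the 9 lists (y axis) in DU-145 and LNCaP-AI cells; each point is a gene and filled points passed an adjusted p under 0.05 by edgeR. In DU-145 cells 46 of 77 points are filled and in LNCaP-AI cells 10 of 82, 4 of them thioredoxin system genes to the right of 0.

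Gene positions were examined because the libraries were stranded but the strand setting of the counting is not given in the sources used here. No annotated gene overlaps TXNIP, ARRDC4 or MLXIP. ARRDC1 overlaps the end of ARRDC1-AS1 on the opposite strand, which did not pass in either line (log2 fold change -0.04 in DU-145 and 0.00 in LNCaP-AI cells, edgeR adjusted p = 0.811 and 0.993). ARRDC3 overlaps ARRDC3-AS1, which had 40, 48 and 58 counts with vehicle and 24, 25 and 31 with DOX in LNCaP-AI cells, a log2 fold change of -0.64 (adjusted p = 0.184 by edgeR), opposite in sign to ARRDC3. Its counts were at most 58 in any sample, so they are few beside the 836 or more of ARRDC3. The other overlapping identifiers, at ARRDC1, ARRDC2 and MLXIPL, held at most 7 counts in any sample.
The nearest tested protein-coding neighbours of TXNIP, ARRDC3 and ARRDC4 were examined on each side. POLR3GL, 13587 bases from TXNIP, had log2 fold changes of -0.02 in DU-145 and 0.47 in LNCaP-AI cells (edgeR adjusted p = 0.899 and 0.0809), and NBPF10 on the other side, a gene with near-identical copies whose counts are uncertain, had 0.00 and -0.11. At ARRDC3 the neighbours were ADGRV1 (-0.21 in DU-145 and 0.32 in LNCaP-AI cells) and NR2F1 (0.49 and -1.05), 204194 and 2199905 bases away. Of these, NR2F1 passed in DU-145 cells (adjusted p = 0.0424 by edgeR). At ARRDC4 the neighbours were NR2F2 (-0.42 and 0.08) and IGF1R (-0.29 and -0.45), 1620440 and 674706 bases away. Both passed in DU-145 cells (adjusted p = 3.29e-05 and 0.0012 by edgeR) in the direction of ARRDC4, as did 25.3% of all genes. Neither passed in LNCaP-AI cells (edgeR adjusted p = 0.741 and 0.689), and a shared effect at the locus was not tested.

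Genes with a pattern most like TXNIP and ARRDC4 were sought among 12910 genes by the correlation of log2 CPM, centred within each line, over the 12 samples. These correlations are a description, as the points share the treatment and the division of the samples. For TXNIP the closest genes were ENPP5, a membrane ectoenzyme (Pearson r = 0.969, Spearman rho = 0.923), JOSD2, a deubiquitinase (r = 0.968, rho = 0.769), and ZFAND5, a zinc finger protein of the proteasome pathway (r = 0.966, rho = 0.930). Their log2 fold changes with DOX were 1.69, 0.75 and 0.36 in DU-145 cells and 1.63, 1.13 and 0.50 in LNCaP-AI cells. For ARRDC4 the closest were NKTR (r = 0.959, rho = 0.874), the pseudogene FNBP1P1 (r = 0.950, rho = 0.881), whose reads may be shared with FNBP1, and SERPINF1 (r = 0.946, rho = 0.888), for which log2 fold changes were -0.47, -0.75 and -0.59 in DU-145 and -0.29, -0.34 and -0.35 in LNCaP-AI cells.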

How the data were processed

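Total RNA was isolated with Trizol and TruSeq Stranded mRNA libraries were sequenced. Per the submitters' processing notes, CASAVA 1.8.2, STAR 2.7.0, DESeq2 1.24.0 and GRCh38.p7 were used. The authors deposited raw counts per Ensembl gene, without normalization. The counting tool and its treatment of strand and shared reads are not given in the sources used here. Of 58037 identifiers, 56948 were matched to a symbol, and positions and exon lengths come from GENCODE (GRCh38), not necessarily the authors' release. Promoter sequences were matched for all 7 genes and come from RefSeq (GRCh38.p14).

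A gene was tested if 3 or more of the fitted samples had 10 counts or more, with edgeR 4.0.16 (TMM normalization, glmQLFit, glmQLFTest), in a separate fit for each line, for the vehicle samples, and for the interaction over all 12 samples. Benjamini-Hochberg adjustment covered all genes tested, with a threshold of 0.05. Standard errors were derived from the log2 fold change and F. CPM values use TMM factors of each line. Precision follows from total counts between 10423437 and 26961777 per sample. Reads carry no molecular identifiers, so counting errors cover counting only.

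The 7 genes, the lists and the naming rule were chosen with earlier results of these data known. Named were the 7 genes and MUC1, for each list and line up to 2 called genes per direction with the smallest adjusted p, overlapping and neighbouring genes, and the 3 genes most like TXNIP and ARRDC4. Values of single genes that the rule or a marker list would have named are in part not reported here. The alternatives were DESeq2 1.42.0, normalization by size factors (RLE) or upper quartile, omitting the filter or setting it at 1 CPM, a single fit of 12 samples, the replicate number as a block, and leaving out each sample. Counts of calls within each side of the LNCaP-AI division were added after seeing the data. On simulated counts with 200 genes changed by a log2 fold change of 2, the steps recovered 100% of them in the DU-145 comparison of 13477 genes, 60.5% in the LNCaP-AI comparison of 15518 genes, 82.0% in the vehicle comparison of 15093 genes and 58.5% in the interaction over 16093 genes. Unchanged genes called were 11, 5, 16 and 10 in the same order. Each gene was drawn independently, so the simulation lacked the LNCaP-AI division. Its change of 2 was larger than the DOX difference of any of the 7 genes, so recovery of smaller changes was not tested.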

Additional observations from a re-analysis of the deposited data

Results flagged for a closer look

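The log2 fold change with DOX differed between the lines for 5 list genes in the positive and 8 in the negative direction among 85 tested, by the interaction test over all 12 samples (edgeR, adjusted p under 0.05). This is 15.3% of the list genes, beside 9.18% of 16800 genes. As the lists were chosen with earlier results of these data known, nothing is read from this share. Differences are given as LNCaP-AI minus DU-145, for the 9 of these genes that the naming rule took up. Of the thioredoxin system, TXNRD1 had a difference of 0.94 (SE 0.120, adjusted p = 0.00166), from -0.31 in DU-145 and 0.60 in LNCaP-AI cells, and PRDX1 one of 0.64 (SE 0.0947, adjusted p = 0.00327), from 0.05 and 0.66.

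In the MLX and MAX network the difference was -1.11 for MXD1 (adjusted p = 0.00403) and -0.63 for MYC (adjusted p = 0.00377), while MXD4, outside the naming rule and named after its values were seen, went the other way with 1.12 (SE 0.265, adjusted p = 0.0276). The ligase NEDD4L was higher with DOX in both lines, by 1.25 in DU-145 and 0.61 in LNCaP-AI cells, a difference of -0.61 (adjusted p = 0.00324). VPS37B differed by -0.89 (adjusted p = 0.0018) and SLC11A2 by -0.67 (adjusted p = 0.00748). The difference was -0.57 for HK2 (adjusted p = 0.0212), whose call held in 13 of 20 alternatives, and -0.58 for PRKAB1 (adjusted p = 0.0455), whose call held in 6 of 20, with adjusted p up to 0.148 and 0.223. The other 7 of these 9 genes kept their call in 19 of 20 alternatives and lost it with the replicate block (adjusted p from 0.055 to 0.0969). On the first and second side of the LNCaP-AI division the differences were 0.93 and 0.84 for TXNRD1, 0.58 and 0.70 for PRDX1, -0.84 and -1.15 for MXD1, -0.57 and -0.59 for MYC, -0.59 and -0.68 for NEDD4L, -0.90 and -0.89 for VPS37B, -0.72 and -0.68 for SLC11A2 and -0.51 and -0.50 for HK2, which passed on both sides. PRKAB1 had -0.39 (adjusted p = 0.107) and -0.63 (adjusted p = 0.020).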

How the results depend on the processing

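The sign of each DOX difference of the 7 genes was the same under all alternatives run within each line, except for ARRDC2 in LNCaP-AI cells. On either side of the division, values that moved were 1.26 and 1.02 for TXNIP, 0.61 for ARRDC1, -0.36 and 0.16 for ARRDC2, -0.13 for ARRDC4 and -1.32 for MLXIPL, and for the difference between the lines 0.30 for ARRDC1, -0.043 and 0.44 for ARRDC2, 0.83 for ARRDC3 and -0.63 for MLXIPL. Leaving out each sample gave -0.12 to -0.049 for MLXIP in DU-145 cells and 0.070 to 0.41 for the line difference of TXNIP, the lowest without DU-145 vehicle 3. Between vehicle samples it gave 0.42 to 0.63 for ARRDC1 and -0.61 to -0.36 for ARRDC2, which without a filter was -0.42 and with LNCaP-AI vehicle 1 alone -0.28, no longer passing. With LNCaP-AI vehicle 1, DOX 2 and DOX 3 only, SLC2A1 reversed to 0.37 with DOX, and with vehicle 1 alone ACLY reversed to 0.26 between vehicle samples. In a single fit of 12 samples, calls in DU-145 cells went from 7033 to 4083 of all genes and from 46 to 26 of the list genes. In LNCaP-AI cells 2043 calls became 3517 by DESeq2, 3933 in the single fit and 7486 with vehicle 1, DOX 2 and DOX 3 only, and list genes went from 10 to 20, 25 and 42. Leaving out single samples gave 1 to 3538 calls and 0 to 17 list genes, with 1096 without vehicle 2, 994 without vehicle 3, 3538 without DOX 1, and 1 without DOX 2 or DOX 3, where 3204 and 3201 genes had an unadjusted p under 0.05. Deviations of same-numbered samples from their group means correlated at -0.94 to -0.812 in LNCaP-AI and at -0.0912 to 0.127 in DU-145 cells. In LNCaP-AI cells each same-numbered pair lay on opposite sides of the division. With the replicate block edgeR made 0 calls in LNCaP-AI cells, 0 of them list genes. In that run 2909 genes had an unadjusted p under 0.05, against 3517 DESeq2 calls without the block. The interaction count of 1543 became 884 without a filter, 52 with the replicate block, 3635 and 2449 within the sides, and 737 to 3471 when single samples were left out. The causes were not tested. Few counts limit TXNIP, ARRDC4 and MLXIPL in DU-145 cells.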

Other observations

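Between vehicle samples, the lists around the family also differed by line (edgeR, adjusted p under 0.05). Among 81 genes tested, 32 were higher and 28 lower in LNCaP-AI than in DU-145 cells, or 74.1% beside 65.1% of all genes. Nothing is read from this share either, for the same reason. Of 9 NEDD4-family ligases 2 were higher and 6 lower (median log2 difference -0.96, against 0.06 over all genes). NEDD4 had a log2 fold change of -3.93 (SE 0.108), while NEDD4L was higher by 0.72 (SE 0.0799, adjusted p = 0.000213 by edgeR). Of 6 AMPK subunits 1 was higher and 5 lower, with PRKAG1 at 0.81 and PRKAB1 at -1.19. Of 11 ESCRT genes 7 were higher and none lower (median 0.387). SLC2A1 was lower in LNCaP-AI cells at -1.60 (SE 0.241, adjusted p = 0.000924 by edgeR) and SLC2A12 higher at 4.25 (SE 0.252). The size for SLC2A1 varied with the division, at -2.18 with vehicle 1 as the only LNCaP-AI sample and -1.28 with vehicle 2 and vehicle 3. TXNRD1 was lower at -3.39 (SE 0.105).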
